A study of Mus musculus with 6 samples.

Results

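The 10 genes described here act in messenger RNA 3′ end formation and were measured in mouse Neuro2A cells: Cpsf6, the host gene of the silenced circular RNA circCpsf6, its cleavage factor I partners Cpsf7 and Nudt21, the CPSF genes Cpsf1, Cpsf2 and Cpsf3, and the CstF genes Cstf1, Cstf2, Cstf2t and Cstf3. They were picked by symbol, and all 10 had a row among the 55385 genes of the deposited table. Neuro2A is a mouse neuroblastoma line, labelled as neuroblasts. The si-circCpsf6 group (n = 3 libraries) received an siRNA to the circle and the si-NC group (n = 3) a comparison siRNA, each at 100 nM with a lipid reagent. Whether replicates came from separate cultures is not stated, so each p-value reflects the spread among 6 libraries, which may be technical.

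Most mammalian mRNAs are cut and given a poly(A) tail at a site marked by several short elements. CPSF recognises the hexamer AAUAAA and holds the endonuclease that cuts, CstF binds the U- or GU-rich stretch downstream of the cut, and cleavage factor I binds UGUA elements upstream of it. Cleavage factor I is known for favouring distal poly(A) sites, so that its loss shortens many 3′ untranslated regions (3′ UTRs). None of this can be read from 1 value per gene, which mixes isoforms and does not separate any reads of the circle from those of linear Cpsf6 mRNA. The silencing itself was therefore not checked.

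Values are FPKM, fragments scaled by transcript length and by library size, so levels can be compared between genes. Between 12860 and 13080 genes reached 1 FPKM in si-circCpsf6 libraries and between 12671 and 13024 in si-NC libraries. All 10 genes passed the filter of a mean of at least 1 FPKM, and each was read from a limma fit of log2(FPKM + 1) over all 12974 genes that passed it. Of 15 markers of neuroblastoma and neurons, 13 were tested. Their summed level was 784 to 871 FPKM in si-circCpsf6 and 1023 to 1234 FPKM in si-NC, with no overlap. Chga alone of the 13 passed the test, where 1.69% of all tested genes were called in either direction. Chga, which encodes a granule protein, fell (limma adjusted p = 0.0335) and was marked significant in the authors' deposited table. Dbh was marked there too, although its groups overlapped and its deposited q-value was 0.19 (limma adjusted p = 0.233). Chga was no longer called when any 1 library was left out (limma adjusted p = 0.0516 to 0.16). The sum is weighted to abundant genes, above all the tubulin gene Tubb3 (379.84 to 407.58 FPKM in si-circCpsf6 and 443.59 to 591.95 FPKM in si-NC). The markers did not share a direction: 8 of 13 had a log2 fold change below 0 and 5 above. The groups did not overlap for 6 of the 13 lower and 1 higher, against 14% and 12.8% of all tested genes. The higher one was Mycn, at 19.38 to 23.82 FPKM in si-circCpsf6 and 6.74 to 18.73 FPKM in si-NC (limma log2 fold change 0.87, adjusted p = 0.18). The 7 fibroblast markers (1 tested) summed to 1.29 to 7.24 FPKM in si-circCpsf6 and 1.28 to 8.99 FPKM in si-NC. The 9 macrophage and glial markers (1 tested, with Aqp4 listed at 0 throughout) summed to 2.6 to 3.76 FPKM in si-circCpsf6 and 4.14 to 5.47 FPKM in si-NC. The part of these shifts in the results below was not tested.

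No gene of the 10 passed the test, although all 10 fitted differences were below 0. At a limma adjusted p under 0.05 the count was 0 of 10, where 1.69% of all tested genes were called, 0.786% lower and 0.902% higher in si-circCpsf6. At an unadjusted p under 0.05, 4 of 10 were lower in si-circCpsf6 (Cpsf2, Cpsf3, Cstf2 and Cstf2t), against 10.1% of all tested genes that were lower by the same rule and 20.3% in either direction. In the authors' deposited table, q-values were under 0.05 for 1 of the 10, Cstf2t, and for 1.47% of all genes, while 0 of the 10 and 1.72% of all genes were marked significant. Both of these shares are of all 55385 genes of that table, most of them under the filter, and not of the 12974 tested. They are therefore no like yardstick for the 10 genes, which all passed the filter. The 3 si-circCpsf6 values lay wholly below the 3 si-NC values in 5 of 10 genes, as they did in 14% of all tested genes (26.9% counting both directions). The median log2 fold change was -0.25 over the 10 genes and -0.02 over all tested genes, of which 52.8% were below 0. Cstf1, at 0.00, turned just above 0 when libraries were centred on their medians (0.01) or quantile normalised (0.01).

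**Figure D1:**
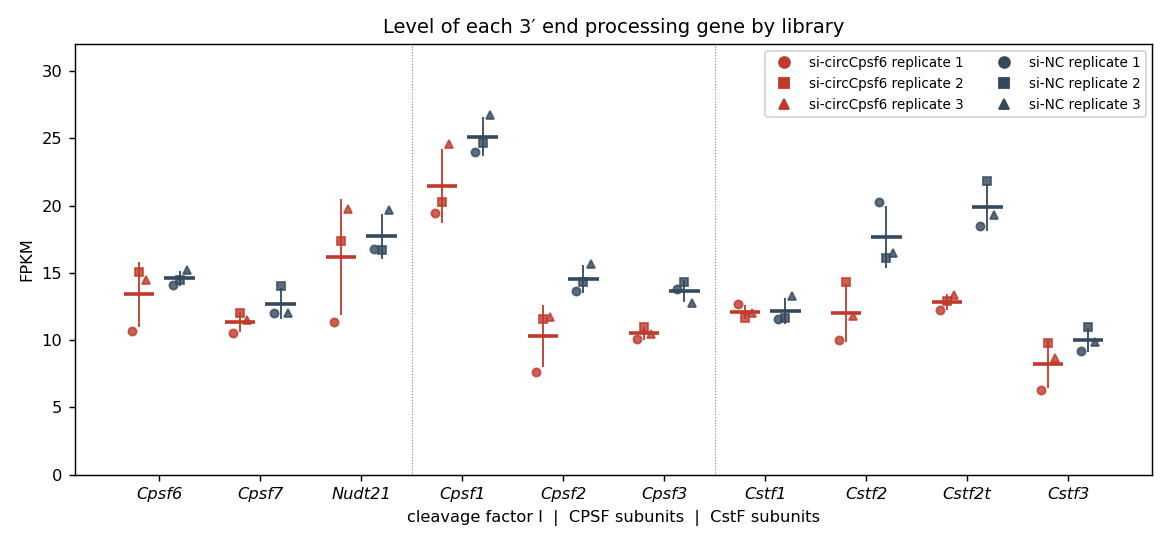
FPKM of the 10 genes in each library, with red points for si-circCpsf6 and dark points for si-NC; horizontal lines are group means and vertical lines are SD (n = 3 each). The 2 groups are widest apart in Cstf2t (12.21 to 13.34 FPKM in si-circCpsf6 and 18.49 to 21.83 FPKM in si-NC), and Cstf1 lies at the same height in both.

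Cpsf6 encodes the larger of the alternative subunits that pair with Nudt21 in cleavage factor I (ENSMUSG00000055531, chromosome 10, 117344673 to 117380015, minus strand, GRCm38). Its level was 10.65, 15.06 and 14.5 FPKM in si-circCpsf6 replicates 1 to 3 and 14.09, 14.5 and 15.2 FPKM in si-NC replicates 1 to 3. Replicate 1 of si-circCpsf6 was the only library below 14 FPKM, and the other libraries of the groups overlapped. The mean was 13.4 ± 2.40 FPKM in si-circCpsf6 and 14.6 ± 0.56 FPKM in si-NC (SD, n = 3 each). The log2 fold change had a 95% interval of -0.49 to 0.23 (limma adjusted p = 0.688), which holds 0. Without si-circCpsf6 replicate 1 the log2 fold change was 0.02.

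Nudt21, which encodes the subunit that contacts UGUA, was at 11.37, 17.36 and 19.76 FPKM in si-circCpsf6, against 16.78, 16.73 and 19.64 FPKM in si-NC. The groups overlapped, and again 1 library, si-circCpsf6 replicate 1, was low (limma log2 fold change -0.15, adjusted p = 0.717, and 0.06 without that library). A processed pseudogene on chromosome 3, Gm7488, holds most of the 643 stretches of 50 bases, out of 5390 in Nudt21 transcripts, that occur in other genes too, so Nudt21 values are uncertain to that extent. Gm7488 read 0.5 to 1.18 FPKM over the 6 libraries. Cpsf7, the subunit that can take the place of Cpsf6, was at 10.54, 12.01 and 11.47 FPKM in si-circCpsf6, against 12.05, 14.03 and 12.03 FPKM in si-NC. These groups did not overlap, but the gap between the nearest values was that between 12.01 and 12.03 FPKM (limma log2 fold change -0.15, adjusted p = 0.553). The balance of the pair was close to level: log2(Cpsf7/Cpsf6) was -0.23 ± 0.18 in si-circCpsf6 and -0.20 ± 0.15 in si-NC (SD, n = 3 each; exact permutation p = 0.9, two-sided, where 0.1 is the smallest p that 3 against 3 allows).

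The CPSF genes among the 10 were lower in si-circCpsf6 to different degrees, and none passed the test. Cpsf1 encodes the largest, scaffolding subunit and had the highest level of the 10 genes. It was at 19.47, 20.28 and 24.6 FPKM in si-circCpsf6, against 23.96, 24.61 and 26.75 FPKM in si-NC, with overlap through si-circCpsf6 replicate 3 (limma log2 fold change -0.22, adjusted p = 0.405). Cpsf2 encodes the catalytically inactive partner of the endonuclease (ENSMUSG00000041781, chromosome 12, 101975988 to 102006424). It was at 7.67, 11.54 and 11.73 FPKM in si-circCpsf6, against 13.65, 14.3 and 15.65 FPKM in si-NC. The groups lay apart, with the lowest value again in si-circCpsf6 replicate 1. The limma log2 fold change was -0.48 (standard error 0.18, adjusted p = 0.189), and it was -0.30 without that library. Cpsf3 encodes the endonuclease itself (ENSMUSG00000054309, chromosome 12, 21285391 to 21315056). It was at 10.06, 10.99 and 10.46 FPKM in si-circCpsf6, against 13.82, 14.33 and 12.77 FPKM in si-NC. Here the 3 si-circCpsf6 libraries were close to each other and all below si-NC, 23% lower in the mean (limma log2 fold change -0.35, standard error 0.12, adjusted p = 0.163).

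The widest differences were in the CstF genes that bind RNA. Cstf2t is a single-exon gene for the tau form of the RNA-binding subunit (ENSMUSG00000053536, chromosome 19, 31082837 to 31087069, plus strand). It was at 12.21, 12.93 and 13.34 FPKM in si-circCpsf6, against 18.49, 21.83 and 19.3 FPKM in si-NC, and it was 35.5% lower in the mean. Each group was tight and the groups lay well apart. On the log2 scale the difference was -0.59 (standard error 0.12), with a 95% interval of -0.88 to -0.31, just outside the threshold (limma adjusted p = 0.0599). It passed when the filter was raised to 5 FPKM (limma adjusted p = 0.0477) and among protein-coding genes (0.04), and not with any 1 library left out (0.0944 to 0.233). In the authors' deposited table its q-value was 0.03 and it was not marked as significant. The smallest absolute log2 fold change of a marked gene was 1, and Cstf2t had -0.63.

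Cstf2, the X-linked paralog with introns, encodes the general form of the same subunit (ENSMUSG00000031256, chromosome X, 134059187 to 134086819, plus strand). It was at 10.01, 14.3 and 11.78 FPKM in si-circCpsf6, against 20.28, 16.12 and 16.49 FPKM in si-NC. The groups did not overlap, but their spread was wider than in Cstf2t (limma log2 fold change -0.52, standard error 0.17, adjusted p = 0.142). The pair shared no stretch of 50 bases between their annotated transcripts. Cstf2t made up 51.8 ± 3.89% of the summed FPKM of the pair in si-circCpsf6 and 53.0 ± 4.97% in si-NC (SD, n = 3 each; exact permutation p = 0.7, two-sided, smallest possible 0.1). Of the other subunits, Cstf3, the bridging scaffold, was at 6.27, 9.79 and 8.65 FPKM in si-circCpsf6, against 9.17, 10.95 and 9.86 FPKM in si-NC. The groups overlapped (limma log2 fold change -0.27, adjusted p = 0.438, and -0.10 without si-circCpsf6 replicate 1). Cstf1, a WD-repeat subunit, was at 12.68, 11.64 and 12.04 FPKM in si-circCpsf6, against 11.56, 11.62 and 13.31 FPKM in si-NC (limma adjusted p = 0.993). Its 95% interval ran from -0.29 to 0.28 on the log2 scale.

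**Figure D2:**
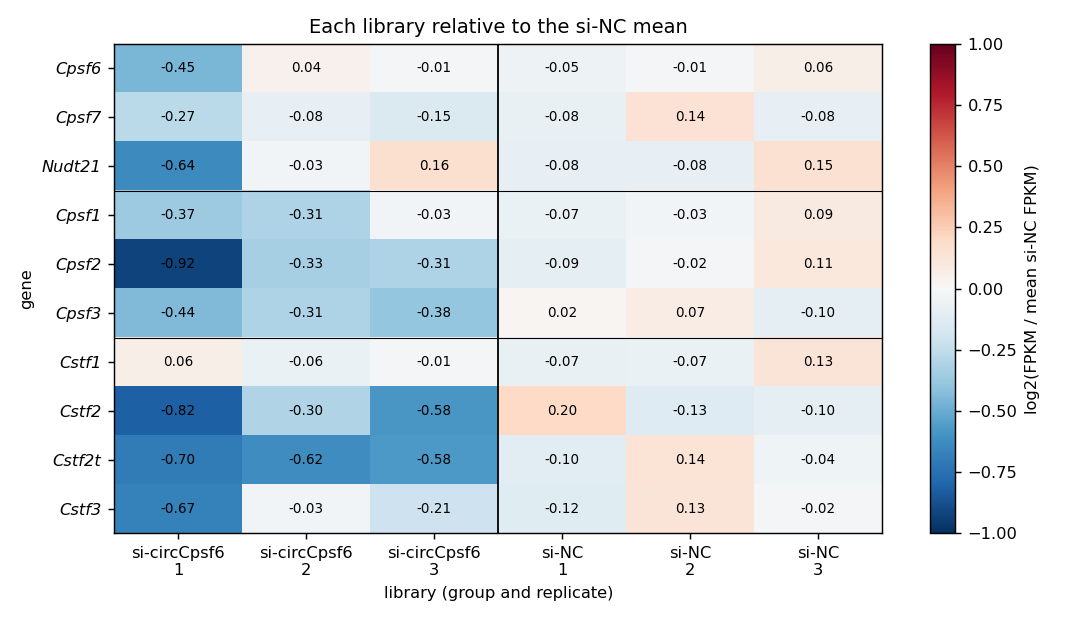
Colour and printed values give log2 of FPKM over the si-NC mean for each gene (down) in each library (across), with si-circCpsf6 libraries to the left of si-NC. The column of si-circCpsf6 replicate 1 is the darkest blue, and Cstf2t, Cstf2, Cpsf2 and Cpsf3 are blue in all 3 si-circCpsf6 libraries.

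The lowest of the 6 values fell in si-circCpsf6 replicate 1 for 9 of the 10 genes, all but Cstf1, whereas that library was the lowest for 29.1% of all tested genes. It was the highest for 0 of the 10 and for 20.9% of all tested genes. The median over the 10 genes of log2(FPKM over the si-NC mean) was -0.55 in si-circCpsf6 replicate 1, -0.19 in replicate 2 and -0.18 in replicate 3, with -0.08, -0.02 and 0.02 in the si-NC libraries. The whole library was not shifted as far: the median over all tested genes of log2(FPKM + 1) relative to si-NC was -0.06 in replicate 1 and -0.01 in replicates 2 and 3. Summed over those of the 10 genes in each factor, the 4 CstF genes came to 41.17, 48.66 and 45.81 FPKM in si-circCpsf6, against 59.5, 60.52 and 58.96 FPKM in si-NC. The 3 CPSF genes came to 37.2, 42.81 and 46.79 FPKM in si-circCpsf6, against 51.43, 53.24 and 55.17 FPKM in si-NC. Both sums were lower in each si-circCpsf6 library than in any si-NC library, as were 14% of all tested genes taken singly. The CPSF sum covers a part of that factor. The other CPSF subunits and symplekin (5 genes) came to 44.02 to 46.07 FPKM in si-circCpsf6 and 39.31 to 46.26 FPKM in si-NC, which overlap. The 3 cleavage factor I genes came to 32.56, 44.43 and 45.73 FPKM in si-circCpsf6, against 42.92, 45.26 and 46.87 FPKM in si-NC, which overlap. These sums are given with no test.

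In order of mean level in si-circCpsf6 the genes ran Cpsf1, Nudt21, Cpsf6, Cstf2t, Cstf1, Cstf2, Cpsf7, Cpsf3, Cpsf2 and Cstf3. All neighbours in that order overlapped in their 3 values. In si-NC the order was Cpsf1, Cstf2t, Nudt21, Cstf2, Cpsf6, Cpsf2, Cpsf3, Cpsf7, Cstf1 and Cstf3. Cpsf1 stood above the rest there with no overlap, and Cstf3 stood below the rest with no overlap. Averaged over all 6 libraries, levels ran from 9.12 FPKM for Cstf3 to 23.3 FPKM for Cpsf1, higher than 59% and 84.2% of tested genes.

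The sites at which these mRNAs themselves end were read from the longest annotated 3′ UTR of each gene (GENCODE M21, GRCm38). The hexamer AATAAA stood in the last 50 bases in 7 of the 10, against 64.1% of 10630 tested genes with a 3′ UTR of at least 50 bases. Those of Cpsf6 and Cstf2 are given with the hexamer in capitals, for the host gene and for the intron-bearing CstF paralog. Cstf2t had no AATAAA in its last 50 bases, although 1 copy stood farther upstream. The windows lie at chr10:117344673-117344702 (minus strand) and chrX:134086790-134086819 (plus strand).
Cpsf6: tcttgtattgaaAATAAAaacaaagttttg
Cstf2: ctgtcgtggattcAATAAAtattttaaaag

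The 3′ UTR of Cpsf6, at 4798 bases, was longer than that of 95.2% of these genes. It held 8 copies of AATAAA and 47 of TGTA, the DNA spelling of the UGUA element that the encoded protein's own complex binds. That is 9.8 TGTA per kilobase, higher than in 89.6% of the genes, whose median was 5.17. Among the members, Cpsf1 (25.3 per kilobase), Cstf3 (11.8) and Cpsf2 (11.6) were denser than Cpsf6. Nudt21 (4187 bases, 28 TGTA) and Cpsf2 (3203 bases, 37 TGTA, 6 AATAAA) also had long 3′ UTRs, while Cpsf1 had 79 bases and Cpsf3 had 307 bases. A match is a description of letters and not a used site, and 90.1% of the genes held at least 1 TGTA.

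**Figure D3:**
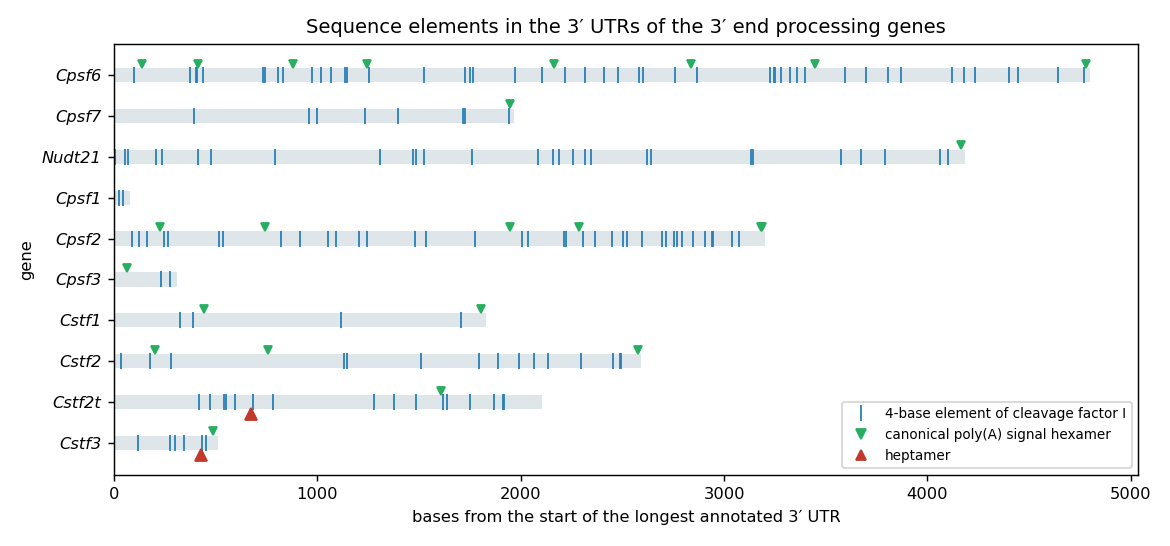
Grey bars show the longest annotated 3′ UTR of each gene, in bases from its start. Blue ticks mark the 4-base element bound by cleavage factor I, green triangles the canonical poly(A) signal hexamer and red triangles the heptamer described in the text; the heptamer stands in Cstf2t and Cstf3 alone among the 10.

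The heptamer GCAGAAT was picked in an earlier analysis of these libraries for the lower values of genes that carry it, so it is no independent evidence here. Among the 10 genes, 2 carried it in the 3′ UTR (Cstf2t and Cstf3), as did 10.2% of the tested genes. The median log2 fold change of tested genes with it was -0.13, and that of the others was -0.01. The sites lie at chr19:31085625-31085654 and chr2:104665336-104665365 (plus strands), and capitals mark the heptamer.
Cstf2t: ctggtgattttGCAGAATagttgtagtgtc
Cstf3: ttttatttatgGCAGAATgtatggcgactg

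It also stood in the coding sequence of 3 of the 10 genes, Cpsf6, Cpsf1 and Cstf2, as in 13.6% of the tested genes. The copy in Cstf2, whose difference was the nearest in size to that of Cstf2t, lies at chrX:134062691-134062720, with the heptamer in capitals.
Cstf2: tcaatgaaccaGCAGAATccgcaggcccct
Cpsf7, Nudt21, Cpsf2, Cpsf3 and Cstf1 held no copy in either place. Any bearing of the heptamer on the levels of the 10 genes was not tested.

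Cstf2t lies whole within Prkg1, a gene of the opposite strand for a cGMP-dependent protein kinase (chromosome 19, 30564489 to 31765033). Prkg1 rose: it was at 4.86, 4.28 and 3.78 FPKM in si-circCpsf6, against 0.47, 1.64 and 0.44 FPKM in si-NC, while Cstf2t was lower in the same libraries. Prkg1 had a log2 fold change of 1.58 (limma standard error 0.26, adjusted p = 0.0346). The call was lost without si-circCpsf6 replicate 1 (limma adjusted p = 0.0773), 2 (0.0815) or 3 (0.0981) and without si-NC replicate 1 (0.104) or 3 (0.155). It was also lost with a pseudocount of 0.1 (0.0548) and with no filter on low values (0.124). No stretch of 50 bases in the Cstf2t transcript occurs in an annotated transcript of Prkg1 or of any other gene. Intronic reads of Prkg1 were not measured apart from its exons.

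Several of the genes begin close to a gene on the opposite strand, and no source used here states how strand was handled, so reads of the overlapping ends cannot be told apart. Nudt21 and Ogfod1, which encodes a prolyl hydroxylase, start 167 bases apart. Ogfod1 was at 4.52, 4.69 and 6.49 FPKM in si-circCpsf6, against 4.08, 3.6 and 3.62 FPKM in si-NC. Its groups lay apart while those of Nudt21 overlapped (limma log2 fold change 0.37, adjusted p = 0.246). Cstf1 and Aurka, the mitotic kinase gene, start 146 bases apart, and both had a fitted difference of 0.00 (limma adjusted p = 0.993 and 0.994). Cpsf3 and Itgb1bp1 overlap by 894 bases, and Itgb1bp1, which encodes an integrin-binding protein, had a log2 fold change of 0.05 (limma adjusted p = 0.9). Cpsf7 and Sdhaf2, which encodes an assembly factor of succinate dehydrogenase, overlap by 877 bases, and Sdhaf2 had -0.08 (limma adjusted p = 0.781). Cpsf7 also overlaps Tmem216, a ciliary gene, by 13789 bases, but at the 3′ side of Cpsf7, with starts 30972 bases apart. Tmem216 was at 0.57 to 0.71 FPKM in si-circCpsf6 and 0.8 to 1.5 FPKM in si-NC, under the filter. Cpsf1 overlaps Adck5 by 14 bases, also at its 3′ side, and Adck5 had -0.13 (limma adjusted p = 0.645). Cpsf2 overlaps the noncoding Ndufb1-ps by 1081 bases, and Ndufb1-ps had -0.21 (limma adjusted p = 0.384). At the 3′ side, Cstf2 overlaps Nox1 by 399 bases. Nox1 was listed at 0 in the 3 si-circCpsf6 libraries, against 0.02, 0.04 and 0 FPKM in si-NC. Cstf3 overlaps Tcp11l1 by 8142 bases, and Tcp11l1 was at 2.74, 2.67 and 2.57 FPKM in si-circCpsf6, against 3.58, 4.26 and 2.98 FPKM in si-NC, lower with no overlap (limma log2 fold change -0.32, adjusted p = 0.288). Cpsf6 has no annotated neighbour of this kind.

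**Figure D4:**
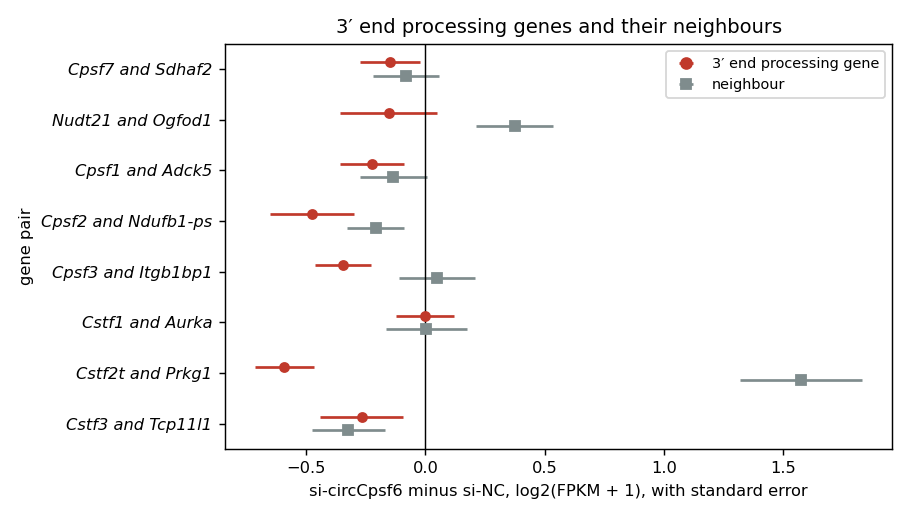
Log2 fold change (si-circCpsf6 minus si-NC, on the log2(FPKM + 1) scale) of the 3′ end processing genes (red circles) and of the tested genes that overlap them or start within 1000 bases on the opposite strand (grey squares), with standard errors. Prkg1, at 1.58, lies farthest from 0 and opposite in sign to Cstf2t.

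The promoter that Nudt21 shares with Ogfod1 and the promoters of the CstF paralogs, the genes with the widest differences, are shown from RefSeq (GRCm38.p6), from 250 bases before to 50 after each gene's start. Capitals mark matches on either strand to GGGCGG (35.7% of 32851 promoters of this length), CCAAT (37.4%) and TGACG (20.8%), and none of the matches overlap in these 3. TATAAA (13.6%) was searched too and stands in none of them. They lie at chr8:94036990-94037289 (minus strand), chrX:134058926-134059225 (plus) and chr19:31082591-31082890 (plus).
Nudt21: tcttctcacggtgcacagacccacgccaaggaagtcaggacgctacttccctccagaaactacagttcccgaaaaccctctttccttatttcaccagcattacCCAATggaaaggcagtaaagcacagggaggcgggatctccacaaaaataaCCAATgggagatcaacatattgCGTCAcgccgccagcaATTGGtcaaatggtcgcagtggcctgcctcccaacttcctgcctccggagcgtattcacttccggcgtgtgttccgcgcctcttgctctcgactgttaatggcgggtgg
Cstf2: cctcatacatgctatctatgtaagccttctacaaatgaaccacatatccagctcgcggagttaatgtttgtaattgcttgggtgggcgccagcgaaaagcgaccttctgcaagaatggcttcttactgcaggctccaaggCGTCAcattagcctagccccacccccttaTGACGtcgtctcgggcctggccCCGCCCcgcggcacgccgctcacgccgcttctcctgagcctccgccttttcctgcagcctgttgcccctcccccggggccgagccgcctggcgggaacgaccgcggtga
Cstf2t: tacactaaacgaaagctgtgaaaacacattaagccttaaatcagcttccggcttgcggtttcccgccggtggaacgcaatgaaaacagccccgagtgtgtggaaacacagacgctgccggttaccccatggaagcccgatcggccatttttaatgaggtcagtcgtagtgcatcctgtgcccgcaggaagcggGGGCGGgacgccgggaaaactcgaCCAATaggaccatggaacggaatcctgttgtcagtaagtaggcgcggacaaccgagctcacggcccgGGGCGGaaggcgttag
The Nudt21 promoter held 3 CCAAT matches and 1 TGACG. The promoter of Cstf2 held 2 TGACG and 1 GGGCGG, and that of Cstf2t held 2 GGGCGG and 1 CCAAT, so the paralogs shared the GGGCGG match alone among these motifs.

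Other genes of 3′ end formation were read from 7 lists of 46 symbols, of which 41 were tested. None was called in either direction (limma, adjusted p under 0.05), where 1.69% of all tested genes were called. At an unadjusted p under 0.05, 4 were lower and 2 were higher in si-circCpsf6, against 10.1% and 10.2% of all tested genes. Their median log2 fold change was -0.08, with 26 of 41 below 0, and their groups did not overlap in 8 cases lower and 5 higher, against 14% and 12.8% of all tested genes. Among the remaining CPSF genes, Cpsf4 and the scaffold gene Sympk had log2 fold changes of 0.14 and 0.14 (limma adjusted p = 0.592 and 0.542). Fip1l1 and Wdr33, which encodes an AAUAAA-binding subunit, had -0.14 and -0.25 (limma adjusted p = 0.663 and 0.29). The groups did not overlap for Sympk (higher) and Wdr33 (lower). The poly(A) polymerase gene Papola had -0.01 and the cleavage factor II gene Pcf11 had -0.01 (limma adjusted p = 0.976 and 0.986).

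Tut1, a nuclear terminal uridylyltransferase and poly(A) polymerase, was at 7.23, 9.16 and 8.91 FPKM in si-circCpsf6, against 12.36, 11.03 and 10.84 FPKM in si-NC (limma adjusted p = 0.165). Zc3h4, a restrictor of early transcription, averaged 7.21 ± 0.97 FPKM in si-circCpsf6 and 9.55 ± 0.52 FPKM in si-NC (SD, n = 3 each; limma adjusted p = 0.189). Snrpa, a protein of the U1 particle, averaged 26.4 ± 4.49 FPKM in si-circCpsf6 and 33.9 ± 0.68 FPKM in si-NC (SD, n = 3 each; limma adjusted p = 0.217). Higher in si-circCpsf6 were Lsm11, of the particle that processes histone mRNA ends, at 6.79 ± 1.40 FPKM against 4.67 ± 1.05 FPKM in si-NC with overlap between groups (limma adjusted p = 0.237), and Pcif1, a cap methyltransferase, at 9.49 ± 0.71 FPKM against 7.23 ± 0.47 FPKM in si-NC (limma adjusted p = 0.176; SD, n = 3 each).

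**Figure D5:**
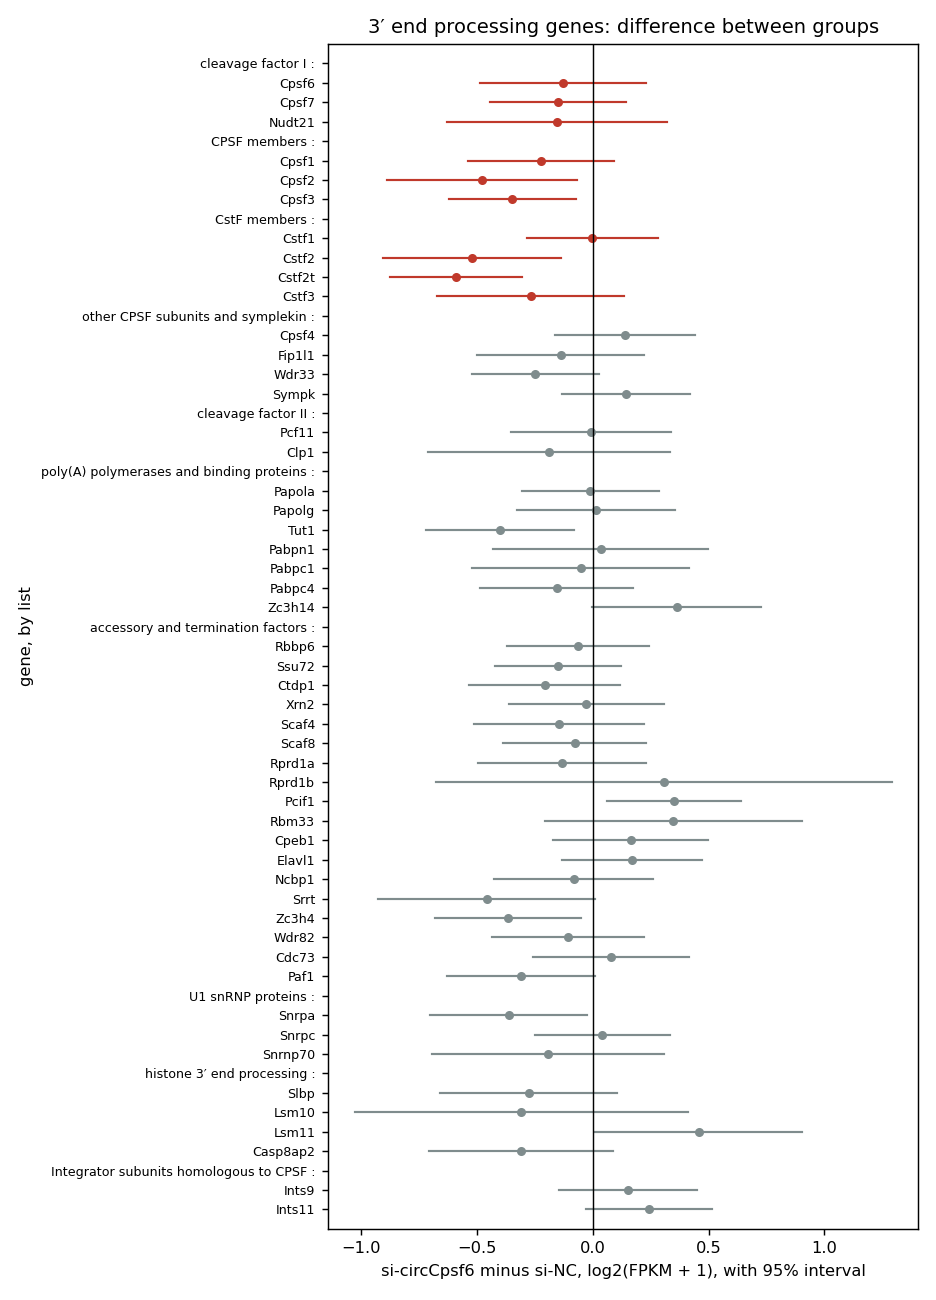
Log2 fold change (si-circCpsf6 minus si-NC, on the log2(FPKM + 1) scale) with 95% intervals for the 10 genes (red) and other tested genes of 3′ end formation (grey), by list. The intervals of Cpsf2, Cpsf3, Cstf2 and Cstf2t lie below 0, as do those of Tut1, Zc3h4 and Snrpa, and those of Pcif1 and Lsm11 lie above 0; these intervals are not adjusted for the number of genes.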

How the data were processed

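RNA from Neuro2A cells was sequenced in 6 libraries, grouped and numbered by sample titles. The authors deposited FPKM per gene rounded to 2 decimals, per the file headers, with their fold change as a ratio, its log2, and p-values and q-values. The deposited log2 fold change equals the log2 ratio of mean FPKM within 0.009 in 11448 genes above 1 FPKM in all libraries. Bowtie 0.12.2, mm8 and mm9 appear in the submitters' processing notes with no role, and neither the FPKM program nor the authors' test is stated there. The labels name a small RNA kit for the mRNA libraries. No more than 33.1% of low FPKM came out as whole reads (tolerance 0.1), so counts were not recovered, depth is unknown and no count test was run. In all, 55144 of 55385 gene identifiers matched GENCODE M21 (GRCm38).

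Genes averaging 1 FPKM or more were tested with limma 3.58.1 (R 4.3.3) on log2(FPKM + 1), group as the only term, intensity trend, Benjamini-Hochberg adjustment over 12974 genes and a threshold of 0.05. That scale understates changes of low genes. The procedure was checked on simulated data with changes larger than any fitted difference of the 10 genes. That check says nothing of how often differences of their size are found. The genes and lists were chosen with earlier results of these data known. Genes named besides the 10 are, of the 7 lists, the 6 with the smallest p and the highest and lowest fold change; neighbours; the 5 genes most correlated with Cpsf6; and reported cleavage factor I targets. Sympk, Cpsf4, Fip1l1, Wdr33, Papola, Pcf11, Chga, Dbh, Tubb3, Mycn and Aqp4 were named after their values were seen. Some genes that the rule or lists hold are counted but not reported here. Figures and sequence work used matplotlib 3.10.9, scipy 1.17.1, pandas 2.3.3 and numpy 2.4.6 in Python 3.11.15. Alternatives are in the closing section.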

Additional observations from a re-analysis of the deposited data

How the results depend on the processing

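Of the 10 genes, 1 (Cstf2t) was called with a mean of at least 5 FPKM, among protein-coding genes alone and by the deposited q-values, and 0 under the other settings run; none of the other genes of 3′ end formation was called under any. Over all tested genes, 117 were called higher and 102 lower. The counts were 112 and 109 with a mean of at least 5 FPKM, a filter that 7923 genes besides Cpsf6 passed. They were 4 and 9 with no filter. They were 245 and 192 for protein-coding genes, whose tested number is not given here, so no share stands beside them. By the deposited q-values they were 495 and 321, together 1.47% of all 55385 genes of the table. With the replicate number as a block they were 6 and 5. With 1 library left out they ranged from 1 to 43 higher and from 2 to 44 lower. The cause was not tested. Same-numbered libraries deviated together with correlations of 0.103, 0.129 and 0.084, so the numbers do not pair the samples by the threshold of 0.1 for every pair. Each number did correlate best with its own, a hint from the data alone. With the block, Cstf2t had a limma adjusted p of 0.0948. The differences in the Cstf2t share (-1.2 points) and in log2(Cpsf7/Cpsf6) (-0.02) cannot change when replicate numbers are paired. Flipping the signs of the differences within numbers gave a sign-flip p of 0.75 for each. Prkg1 and Chga lost their calls with the block (limma adjusted p = 0.0651 and 0.0615).

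Some small differences changed sign. With 1 library left out, the log2 fold change ranged from -0.21 to 0.0173 for Cpsf6, from -0.31 to 0.0646 for Nudt21 and from -0.0354 to 0.0587 for Cstf1 (0.0236 and 0.0012 among them), and Cstf1 was at 0.0131 with median centring and 0.0099 with quantile normalization. The Cstf2t share ranged from -3.88 to 1.04 points (0.981 among them) and log2(Cpsf7/Cpsf6) from -0.129 to 0.055 (0.027 and 0.033 among them). Fragment numbers behind the values are not known, so no counting error can be given.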

Other observations

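A list of 6 genes was read for their poly(A) site use, reported to shift when cleavage factor I is reduced (for Ccnd1, Dicer1 and Timp2 in human cells). Their gene-level differences went in both directions. The test was passed by 0 of 6, where 1.69% of all tested genes were called. Dicer1, the microRNA-processing enzyme, was at 6.15, 6.47 and 6.58 FPKM in si-circCpsf6, against 9.69, 11.8 and 9.85 FPKM in si-NC, with no overlap (limma log2 fold change -0.62, adjusted p = 0.0598). The kinase gene Pak1 was at 27.91, 25.39 and 24.66 FPKM in si-circCpsf6, against 16.88, 21.28 and 16 FPKM in si-NC (limma log2 fold change 0.51, adjusted p = 0.112). Timp2, an inhibitor of metalloproteinases, was at 33.23, 27.69 and 26.29 FPKM in si-circCpsf6, against 18.35, 25.09 and 17.1 FPKM in si-NC (limma adjusted p = 0.163). Both were higher with no overlap between groups. Of the 6 genes, the groups lay apart for 1 lower and 2 higher, against 14% and 12.8% of all tested genes. The cyclin gene Ccnd1 (0.15) and the proton pump assembly gene Vma21 (-0.12) overlapped between groups, each with its log2 fold change given (limma adjusted p = 0.775 and 0.752). Dicer1 was called with a mean of at least 5 FPKM (limma adjusted p = 0.0493), among protein-coding genes (0.04) and by the authors' deposited q-value (0.02).

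The 5 genes with a pattern most like Cpsf6 over the 6 libraries, out of 7923 averaging 5 FPKM or more, were Zfp326, Sept2, Gclm, Ostc and Nipa2 (Pearson r of 0.9976, 0.9895, 0.9894, 0.9892 and 0.9892 on log2(FPKM + 1)). All were lowest in si-circCpsf6 replicate 1. Zfp326, a zinc finger protein gene, was at 4.44, 7.47 and 7 FPKM in si-circCpsf6, against 6.67, 7.12 and 7.34 FPKM in si-NC. Sept2, a septin gene, has 2 rows in the table: this one read 2.42 FPKM and the other 20.19 FPKM in si-circCpsf6 replicate 1, against 51.61 to 67.92 and 1.25 to 2.07 FPKM in the other 5 libraries. Among the 10 genes, Nudt21 (r = 0.94), Cstf3 (0.91) and Cpsf2 (0.87) were nearest to Cpsf6, and Cstf1 (-0.25) was farthest. These correlations are descriptions over 6 libraries in which si-circCpsf6 replicate 1 is low for most of these genes.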
